A study of Mus musculus with 30 samples.

Results

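Polycomb repressive complex 2 (PRC2) was followed through its own transcripts, by every probe set of 10 genes: the core subunits Ezh2, Ezh1, Suz12, Eed and Rbbp7, the accessory subunits Mtf2, Phf19 and Phf1, and the accessory subunits Jarid2 and Aebp2. The members were taken by the gene symbol of the platform annotation, which gave 32 probe sets of the 34958 that name 1 gene, among 45101 on the array, and 10 of 18194 genes. RNA of mouse embryonic stem (ES) cells, labelled with biotin, was measured on 30 Affymetrix arrays. The 20 arrays labelled null came from ES cells null for Jmj, the older name of Jarid2, of which 3 were taken at day 0, 5 on each of days 2, 4 and 6, and 2 at day 8. The 10 arrays labelled Fl/Fl came from ES cells with floxed Jmj alleles, which the labels call wild type, with 2 arrays at each of the 5 days. Both genotypes were differentiated by withdrawing LIF, the cytokine that keeps mouse ES cells undifferentiated, and day 0 is the undifferentiated state. The sources used here do not give the parental line, the number of clones or the use of feeder cells. Arrays of a group are described as biological replicates, without a statement that their cultures were separate, so p-values measure only the spread between these arrays, which may be technical.

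PRC2 methylates lysine 27 of histone H3, a mark of repressed developmental genes. Its catalytic subunit is either Ezh2, which prevails in dividing cells, or Ezh1, which prevails in many non-dividing tissues. Suz12 and Eed hold the complex together, Eed also binds the methyl mark that the complex makes, and Rbbp7 and the closely related Rbbp4 bind histones. The accessory subunits define alternative forms of the complex. Mtf2, Phf19 and Phf1 are Polycomb-like proteins that bring it to CpG-rich DNA in the form called PRC2.1, while Jarid2 and Aebp2 occur together in the form called PRC2.2. Among the core subunits, ES cells do not need Ezh2, Suz12 or Eed for self-renewal in standard culture, but differentiate abnormally without them.

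The deposited values are linear intensities in whole numbers. They were compared on the scale of log2(intensity + 4), on which differences are given with their standard error (SE), and a fold on this scale understates the change of dim probe sets. limma's moderated test was adjusted by Benjamini-Hochberg over the 34958 probe sets, and a gene was called at an adjusted p under 0.05 by its brightest probe set. Array means ran from 331.8 to 363.6 and array medians were 10 or 11. The number of arrays limits the precision. The intensity of one probe set cannot be set against that of another, so only changes are compared between genes.

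The arrays labelled null were not alike. In 11 of them Eif2s3y, a gene on the Y chromosome, read 594 to 981, and these include 2 of 3 arrays at day 0, 3 of 5 at each of days 2, 4 and 6 and none at day 8. It read 217 to 365 in 5 others and 11 to 16 in the other 4, against 130 to 234 in the 10 Fl/Fl arrays. RNA integrity, read from the 3' over 5' ratio of the actin control probes, gave ratios of 1.288 to 1.43 in these 11, of 1.545 to 2.024 in the remaining 9 null arrays and of 1.48 to 2.037 in Fl/Fl. Both null arrays at day 8 lie outside the set of 11, so the change to day 8 in null is partly also a change of set. Without the 11, null day 0 replicate 1 alone is left at day 0, and changes from day 0 in null are measured from this 1 array. Where a call of the brightest probe set rests on null arrays and ends, or moves by over 1.5 times, without the 11, the value without them is given. Jarid2, the targeted gene, read 2872 to 4082 in null and 3335 and 3340 in Fl/Fl at day 0, and was not called different there. The sources used here do not place its probe sets inside or outside the deleted part, and so its level cannot check the labels.

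Most of the complex declined as the cells differentiated. At day 8 against day 0 in null, 7 of the 10 genes fell and 1 rose, where 32.1% of all genes were called and 17.7% fell. In Fl/Fl, 6 fell and 1 rose, where 32.6% of all genes were called and 18% fell. The genes that fell in both genotypes by day 8 were Jarid2, Mtf2, Eed, Suz12 and Ezh2. The median log2 change of the 10 genes was −1.07 in null, beside −0.04 over all genes, and −1.22 in Fl/Fl, beside −0.05. Without the 11 null arrays, which leaves 1 null array at day 0, Ezh2, Ezh1 and Rbbp7 were no longer called at day 8 in null. In bulk RNA, fewer cells of a type and less RNA per cell cannot be told apart.

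**Figure D1:**
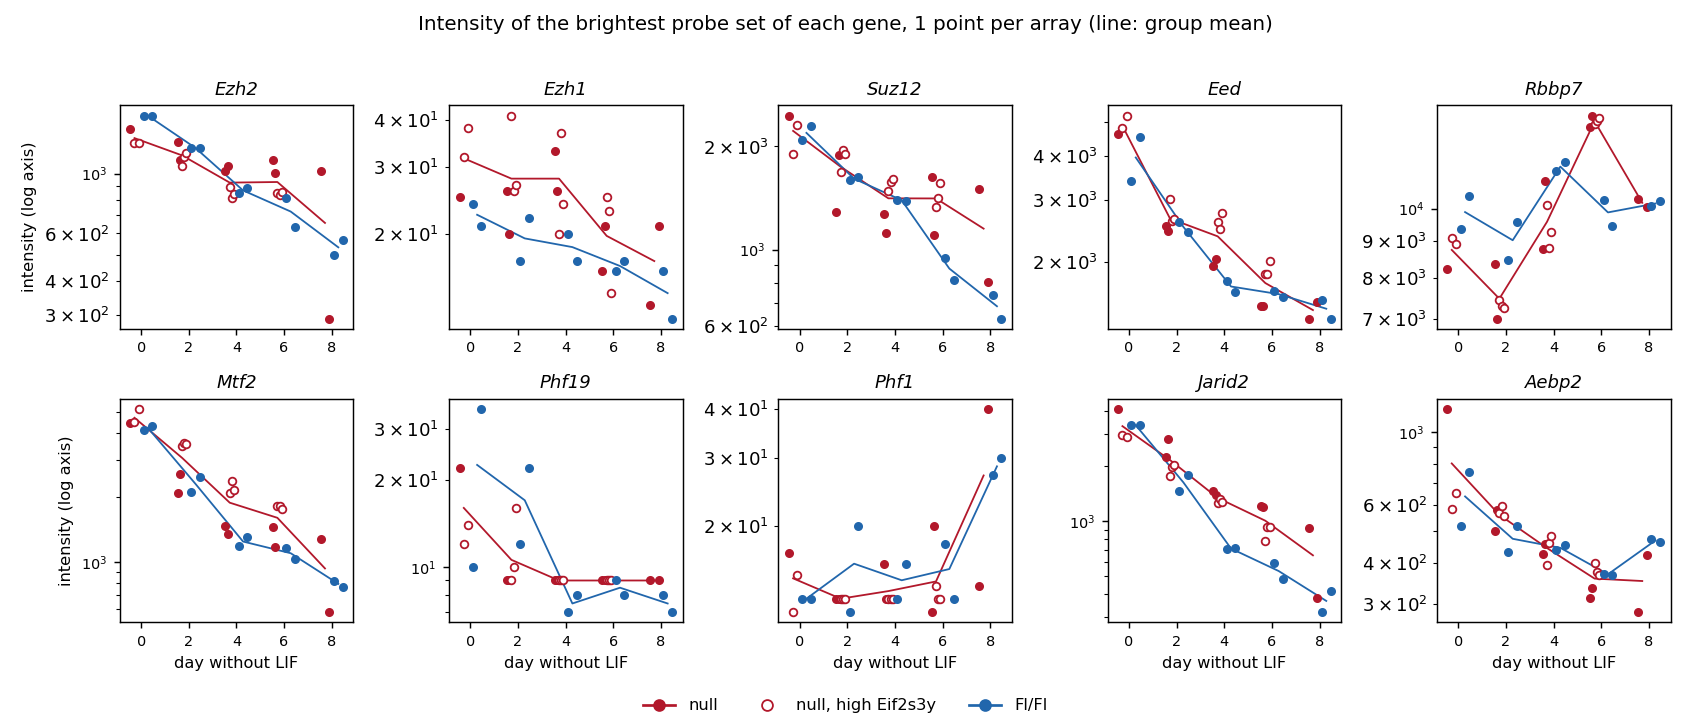
Intensity (log axes, whose ranges differ between panels) of the brightest probe set of each of the 10 genes against day without LIF, 1 point per array, null in red to the left of Fl/Fl in blue, with lines through group means. Open points are the 11 null arrays with high Eif2s3y. Jarid2, Mtf2, Eed, Suz12 and Ezh2 lie lower at day 8 than at day 0, Rbbp7 peaks in null at day 6, and Ezh1, Phf19 and Phf1 stay at or below 41 on every array.

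Calls by the brightest probe set accumulated over the days, with Eed the first. At day 2 Eed was the 1 gene called by its brightest probe set, in null (4.96% of all genes called) and in Fl/Fl (2.74%), and it fell in both. Over all 32 probe sets, 4 were called lower at day 2 in Fl/Fl. Among them were the dimmer 1450710_at and 1422697_s_at of Jarid2, with log2 changes of −1.23 and −1.06 (adjusted p = 0.0164 and 0.0417). At day 4 the count reached 5 genes in null (13.4% of all genes), namely Jarid2, Mtf2, Eed, Suz12 and Aebp2, and 4 in Fl/Fl (17.4%), namely Jarid2, Mtf2, Eed and Phf19, and all of these fell. At day 6 in null, 6 genes fell and 1 rose (28.9%). Without the 11 null arrays, Suz12 was no longer called in null at day 4 (log2 −1.04, against −0.66 with all arrays) or day 6 (−0.87). Nor was Ezh1 called at day 6 (−0.38, against −0.59). Aebp2 then changed by −1.12 at day 2, against −0.45 with all arrays. All of these are measured from 1 null array at day 0. At day 6 in Fl/Fl, 7 genes fell and 0 rose (31.5%). No test asked whether one gene fell sooner than another.

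Jarid2, which binds DNA and PRC2 and can be methylated by it, had the largest fall of the 10 genes in Fl/Fl and, together with Mtf2, in null. In null it read 4082, 2943 and 2872 at day 0, 2226, 2797, 1754, 1979 and 2016 at day 2, 1470, 1383, 1257, 1317 and 1275 at day 4, 1206, 1191, 781, 927 and 926 at day 6 and 920 and 383 at day 8. In Fl/Fl it read 3335 and 3340 at day 0, 1467 and 1789 at day 2, 709 and 710 at day 4, 589 and 481 at day 6 and 319 and 416 at day 8. At day 8 no array overlapped the day 0 arrays of its genotype. The log2 change was −2.45 (SE 0.261, adjusted p = 3.94e-07) in null and −3.18 (SE 0.285, adjusted p = 4.1e-08) in Fl/Fl, which left 19.7% of the day 0 mean intensity in null and 11% in Fl/Fl. The other probe sets of Jarid2 kept 12.8% and 17.7% in null and 10% and 9.1% in Fl/Fl.

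Ezh2, the main methyltransferase subunit of dividing cells, had 1 probe set. The null arrays read 1465, 1295 and 1303 at day 0, 1315, 1121, 1068, 1149 and 1189 at day 2, 1020, 1069, 889, 811 and 842 at day 4, 1124, 1002, 844, 830 and 855 at day 6 and 1023 and 290 at day 8. The Fl/Fl arrays read 1641 and 1640 at day 0, 1247 and 1244 at day 2, 848 and 885 at day 4, 813 and 634 at day 6 and 498 and 568 at day 8. The log2 change at day 8 was −1.30 (SE 0.288, adjusted p = 0.00154) in null and −1.62 (SE 0.315, adjusted p = 0.000445) in Fl/Fl. The 2 null arrays at day 8 lay far apart, one above every Fl/Fl array of days 4 to 8 and the other below every array of the series. Without null day 8 replicate 2 the change in null was −0.40 and no longer called (adjusted p = 0.127), and without the 11 null arrays it was −1.42 (adjusted p = 0.0855).

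Suz12, which joins the catalytic lobe to the accessory subunits, also fell in both genotypes. Readings in null were 2461, 1899 and 2303 at day 0, 1288, 1888, 1686, 1955 and 1906 at day 2, 1274, 1122, 1480, 1571 and 1611 at day 4, 1628, 1103, 1336, 1419 and 1567 at day 6 and 1499 and 804 at day 8. Readings in Fl/Fl were 2092 and 2291 at day 0, 1592 and 1630 at day 2, 1397 and 1390 at day 4, 944 and 817 at day 6 and 738 and 629 at day 8. The log2 change at day 8 was −1.01 (SE 0.218, adjusted p = 0.0013) in null and −1.68 (SE 0.239, adjusted p = 1.41e-05) in Fl/Fl. Without null day 8 replicate 2 the change in null was −0.56 (adjusted p = 0.116). The next brighter pair of Suz12 probe sets kept 50.2% and 52.7% of the day 0 mean in null, against 34.3% and 30.9% in Fl/Fl, near the 51.8% and 31.2% of the brightest. Of the dimmer probe sets, 1449661_at kept 33.4% in null and 20.9% in Fl/Fl, 1420022_s_at had the other order with 34.6% in null and 41% in Fl/Fl, and 1420020_at kept 90.9% in null, where it was not called, and 35.7% in Fl/Fl.

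Eed, the subunit that reads the methyl mark, was lower in both genotypes from day 2 on. In null it read 4623, 4812 and 5226 at day 0, 2524, 2455, 3026, 2619 and 2656 at day 2, 1948, 2043, 2592, 2477 and 2762 at day 4, 1500, 1492, 1846, 1846 and 2014 at day 6 and 1377 and 1536 at day 8. In Fl/Fl it read 3391 and 4547 at day 0, 2603 and 2429 at day 2, 1761 and 1640 at day 4, 1650 and 1585 at day 6 and 1561 and 1378 at day 8. At day 2 the log2 change was −0.88 (SE 0.119, adjusted p = 8.18e-05) in null and −0.64 (SE 0.163, adjusted p = 0.04) in Fl/Fl, and at day 8 it was −1.74 (SE 0.149, adjusted p = 2.18e-08) in null and −1.42 (SE 0.163, adjusted p = 1.06e-06) in Fl/Fl. Both null arrays at day 8 lay within 1377 to 1536, so the gap between them seen for Ezh2 and Suz12 was not seen for Eed. The call at day 2 in Fl/Fl was lost without Fl/Fl day 0 replicate 2 (log2 −0.43, adjusted p = 0.294) and without 6 other arrays in turn (adjusted p from 0.0501 to 0.223). It was also lost after quantile normalization (adjusted p = 0.0533), with array weights (adjusted p = 0.0761) and with only the groups compared in the fit (adjusted p = 0.547).

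**Figure D2:**
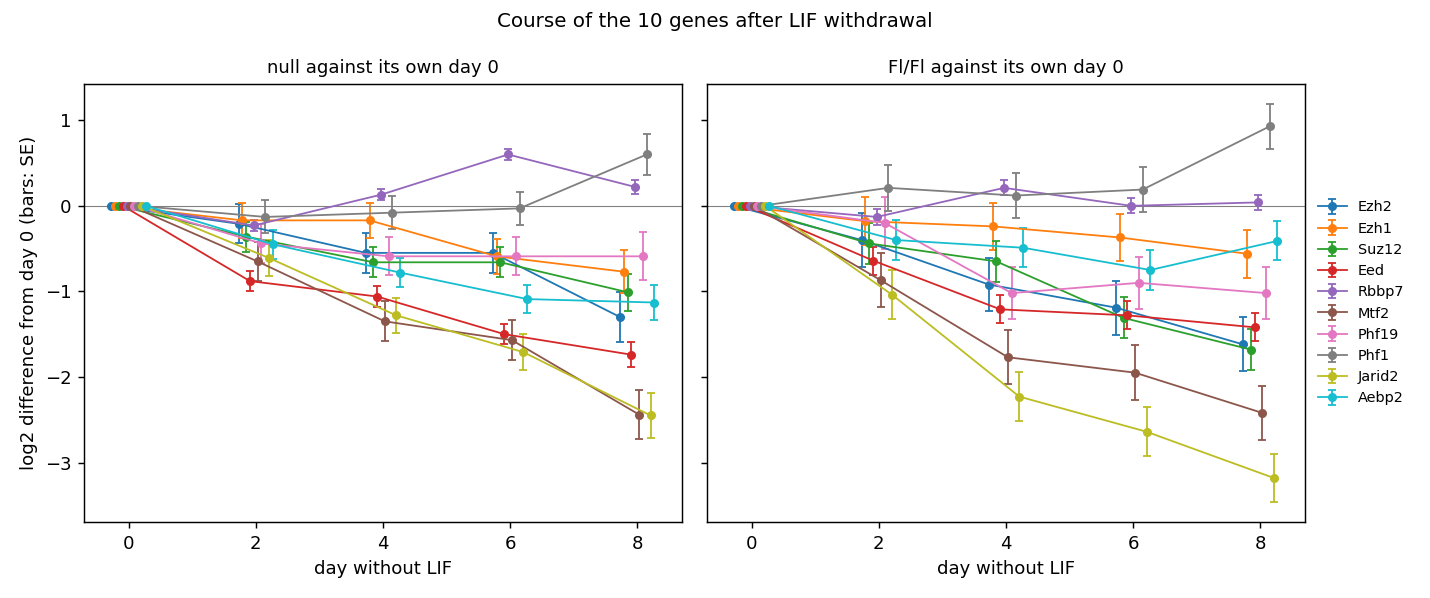
Log2 difference from day 0 against day without LIF for the brightest probe set of the 10 genes, null left and Fl/Fl right, with bars of 1 SE and points shifted sideways for clarity. Jarid2 and Mtf2 reach the lowest values at day 8, −2.45 and −2.44 in null and −3.18 and −2.42 in Fl/Fl, while Rbbp7 and Phf1 lie above 0 at day 8.

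Mtf2, the Polycomb-like protein that is prominent in ES cells, fell in both genotypes. Null arrays gave 4475, 4512 and 5180 at day 0, 2091, 2589, 3486, 3585 and 3576 at day 2, 1466, 1343, 2090, 2394 and 2163 at day 4, 1460, 1169, 1815, 1818 and 1772 at day 6 and 1281 and 581 at day 8. Fl/Fl arrays gave 4152 and 4329 at day 0, 2129 and 2506 at day 2, 1183 and 1305 at day 4, 1161 and 1033 at day 6 and 815 and 762 at day 8. The log2 change at day 8 was −2.44 (SE 0.29, adjusted p = 1.58e-06) in null and −2.42 (SE 0.318, adjusted p = 5.42e-06) in Fl/Fl. At each of days 2, 4 and 6 the 3 null arrays with high Eif2s3y lay above the other 2 null arrays.

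The other Polycomb-like genes were dim. The brightest probe set of Phf19 read 7 to 35. In null it had 9 on both arrays at day 8, against 22, 12 and 14 at day 0, a log2 difference of −0.59 that was not called (adjusted p = 0.13). The Fl/Fl arrays at day 0 had 10 and 35, and its calls in Fl/Fl at days 4, 6 and 8 (log2 −1.02, −0.90 and −1.02) were lost without the array at 35, with adjusted p of 0.619, 0.805 and 0.509. Phf1 was the member that rose in Fl/Fl. In null the day 8 arrays read 14 and 40, against 17, 12 and 15 at day 0, and the difference of 0.60 was not called (adjusted p = 0.0712). It read 27 and 30 at day 8 in Fl/Fl, against 13 and 13 at day 0, a log2 change of 0.93 (SE 0.265, adjusted p = 0.0105), which without Fl/Fl day 8 replicate 2 was 0.87 (adjusted p = 0.0746). Phf19 and Phf1 stood near the floor of the arrays, so these changes are small in intensity.

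Aebp2, the DNA-binding partner of Jarid2 in PRC2.2, fell in null by 1.13 on the log2 scale at day 8 (SE 0.209, adjusted p = 0.000278). Without the 11 null arrays, its log2 changes in null were −1.40 at day 4, −1.84 at day 6 and −1.75 at day 8. With all null arrays they were −0.78, −1.09 and −1.13. The larger falls are measured from the 1 null array left at day 0, which read 1171, while the 2 left out read 582 and 653. The brightest probe set of Aebp2 read 284 and 422 in null at day 8, against 1171, 582 and 653 at day 0. In Fl/Fl it read 474 and 464 at day 8, against 520 and 754 at day 0, a log2 difference of −0.41 that was not called (adjusted p = 0.206). At day 6 in Fl/Fl the change was −0.75 (adjusted p = 0.0181), and without Fl/Fl day 0 replicate 2 it was −0.49 (adjusted p = 0.22), without day 6 replicate 1 −0.76 (adjusted p = 0.0737) and without day 6 replicate 2 −0.75 (adjusted p = 0.0854). The dimmer probe sets did not share one order between the genotypes. At day 8 1435070_at kept 34% of its day 0 mean in null and 59% in Fl/Fl, 1437743_at kept 52.5% in null and 48.2% in Fl/Fl, and 1455616_at kept 52.9% in null and 35.1% in Fl/Fl. The difference between the genotypes in the day 8 change of the brightest Aebp2 probe set was −0.72 (95% interval −1.36 to −0.07, adjusted p = 0.394).

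Rbbp7, the histone-binding subunit, which is also part of several deacetylase complexes, was not called lower than at day 0 on any day in either genotype. The null arrays read 8228, 9099 and 8927 at day 0, 8368, 7012, 7442, 7305 and 7258 at day 2, 8786, 10925, 10101, 8814 and 9273 at day 4, 12997, 13492, 13128, 13244 and 13373 at day 6 and 10319 and 10054 at day 8. The Fl/Fl arrays read 9357 and 10414 at day 0, 8475 and 9581 at day 2, 11279 and 11614 at day 4, 10289 and 9462 at day 6 and 10079 and 10250 at day 8. At day 2 in null the log2 change was −0.23 (adjusted p = 0.0516). It was called with 1 probe set per gene (adjusted p = 0.0417), with array weights (−0.27, adjusted p = 0.00545) and without any of 9 arrays in turn (adjusted p from 0.0165 to 0.0486). In null, all 5 arrays of day 6 exceeded every other array of the series. The log2 change at day 6 was 0.60 in null (SE 0.065, adjusted p = 5.19e-07), and the difference in Fl/Fl was 0.00 (SE 0.089, adjusted p = 1). At day 8 it was 0.22 in null (SE 0.081, adjusted p = 0.0482), a call lost without any of 19 arrays in turn (adjusted p from 0.0507 to 0.177) and without the 11 null arrays (log2 0.31, adjusted p = 0.152), and 0.04 in Fl/Fl (adjusted p = 0.897).

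The promoters of the genes that moved together are shown because E2F factors, which drive genes of S phase, are known to activate Ezh2 and Eed, and because Rbbp7 did not follow the others. Each window runs from 250 bases before to 50 bases after the start of the gene in RefSeq (GRCm38.p6), 5′ to 3′ on the strand of the gene. All 10 genes had a window, and 14 windows were found because 3 genes, Mtf2, Jarid2 and Aebp2, have several starts. The first window in genome order is printed for Mtf2 and Jarid2. Capitals mark matches on either strand to the E2F motifs TTCCCGC and TTGGCGC or to the CCAAT box, CCAAT, bound by NF-Y.
Jarid2, chr13:44730524-44730823, strand +: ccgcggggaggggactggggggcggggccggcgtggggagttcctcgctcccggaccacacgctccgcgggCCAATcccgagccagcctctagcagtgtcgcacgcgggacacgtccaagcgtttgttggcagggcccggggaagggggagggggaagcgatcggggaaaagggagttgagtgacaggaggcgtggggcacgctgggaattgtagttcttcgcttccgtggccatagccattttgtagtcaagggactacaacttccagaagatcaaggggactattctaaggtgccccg
Mtf2, chr5:108065424-108065723, strand +: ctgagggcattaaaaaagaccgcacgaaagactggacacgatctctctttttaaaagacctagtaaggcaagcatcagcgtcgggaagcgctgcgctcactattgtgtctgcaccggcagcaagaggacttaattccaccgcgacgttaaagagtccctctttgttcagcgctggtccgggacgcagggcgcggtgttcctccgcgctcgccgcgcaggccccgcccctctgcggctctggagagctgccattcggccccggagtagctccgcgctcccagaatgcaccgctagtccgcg
Eed, chr7:89980927-89981226, strand -: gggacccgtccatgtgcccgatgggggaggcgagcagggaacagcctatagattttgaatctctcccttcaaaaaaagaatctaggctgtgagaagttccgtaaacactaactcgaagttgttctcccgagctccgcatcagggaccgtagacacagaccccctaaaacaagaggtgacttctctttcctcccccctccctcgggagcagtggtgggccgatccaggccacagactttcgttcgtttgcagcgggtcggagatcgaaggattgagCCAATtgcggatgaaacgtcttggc
Suz12, chr11:79992856-79993155, strand +: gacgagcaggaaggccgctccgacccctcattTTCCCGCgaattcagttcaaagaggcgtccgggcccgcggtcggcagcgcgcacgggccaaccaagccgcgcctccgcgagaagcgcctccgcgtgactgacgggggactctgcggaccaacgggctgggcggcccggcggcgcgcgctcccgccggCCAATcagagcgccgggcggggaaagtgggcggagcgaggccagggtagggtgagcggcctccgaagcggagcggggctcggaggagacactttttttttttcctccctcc
Ezh2, chr6:47594981-47595280, strand -: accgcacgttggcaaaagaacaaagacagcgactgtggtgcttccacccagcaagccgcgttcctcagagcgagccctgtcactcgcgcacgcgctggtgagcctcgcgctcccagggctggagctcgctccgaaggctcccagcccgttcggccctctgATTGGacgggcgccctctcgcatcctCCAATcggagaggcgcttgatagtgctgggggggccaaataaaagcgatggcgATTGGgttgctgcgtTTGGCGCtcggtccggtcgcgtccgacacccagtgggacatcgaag
Rbbp7, chrX:162760122-162760421, strand +: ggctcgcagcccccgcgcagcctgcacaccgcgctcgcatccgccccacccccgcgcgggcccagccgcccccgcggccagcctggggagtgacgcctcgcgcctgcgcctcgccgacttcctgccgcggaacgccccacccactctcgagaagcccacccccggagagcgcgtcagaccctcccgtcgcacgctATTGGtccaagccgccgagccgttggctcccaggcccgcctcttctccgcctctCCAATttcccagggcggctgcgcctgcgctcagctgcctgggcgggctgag

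Matches to either E2F motif stood in 3 of the 14 windows, 1 each of Ezh2, Suz12 and Phf19, and 6.8% of the 32851 windows of all genes hold one. Both motifs contain the pair CG, and these windows hold 31, 41 and 38 CpG pairs, against a median of 7 over all windows. The share over all windows is therefore no like background. In Ezh2 the match was TTGGCGC, which 2.5% of all windows hold, and in Suz12 and Phf19 TTCCCGC, which 4.6% hold. CCAAT stood in 8 of 14 windows, against 37.4% of all windows. The octamer ATGCAAAT, bound by Pou5f1, stood in 0 of 14, and in 1.7% of all windows. In the 6 windows printed, CpG pairs numbered 24 in Jarid2, 30 in Mtf2, 17 in Eed, 41 in Suz12, 31 in Ezh2 and 38 in Rbbp7, where the median over all windows was 7 and the 90th percentile 31. Rbbp7 lay within the range of the 5 genes that fell. These matches describe the letters of the windows and were not set against the arrays.

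Ezh1, the alternative catalytic subunit, was dim on every array. The brightest of its 4 probe sets read 12 to 41, and the others 10 to 14, 7 to 28 and 5 to 6. In null it read 13 and 21 at day 8, against 25, 32 and 38 at day 0, and in Fl/Fl 16 and 12 at day 8, against 24 and 21 at day 0. In null it fell by 0.77 on the log2 scale at day 8 (SE 0.254, adjusted p = 0.0263). The call was lost without the 11 null arrays (log2 −0.49, adjusted p = 0.239), without null day 8 replicate 1 (−0.50, adjusted p = 0.286), without null day 0 replicate 2 (−0.76, adjusted p = 0.0542) and without null day 0 replicate 3 (−0.65, adjusted p = 0.0944). In Fl/Fl the difference of −0.56 was not called (adjusted p = 0.146). Ezh1 was not called higher than at day 0 on any day in either genotype.

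The balance of the catalytic subunits was measured within each array as log2 Ezh1 minus log2 Ezh2. Only its change can be read, since it compares different probe sets. In Fl/Fl Ezh1 read 12 to 24, where array medians were 10 or 11, so a change of this difference there follows Ezh2 and is no separate measure of Ezh1. In null Ezh1 read 13 to 25 at days 6 and 8, so the floor limits the difference there too. On days 0, 2, 4, 6 and 8 in turn, its mean in null was −5.27, −5.22, −4.88, −5.31 and −4.74, with an SD of 1.67 over the 2 arrays of day 8. The means in Fl/Fl on the same days were −5.96, −5.74, −5.28, −5.14 and −4.90, and no array of days 6 and 8 (lowest −5.35) overlapped an array of days 0 and 2 (highest −5.58). Days 6 and 8 lay above days 0 and 2 by 0.09 in null (exact permutation test, two-sided, p = 0.802) and by 0.83 in Fl/Fl (exact permutation test, two-sided, p = 0.0286, the smallest that 70 arrangements can give). Without Fl/Fl day 0 replicate 2 it was 0.76 (exact p = 0.0571). Over these days Ezh2 fell in Fl/Fl and Ezh1 was not called. Without the 11 null arrays the difference in null was 0.40 (exact p = 0.886). No test compared the change from days 0 and 2 to days 6 and 8 between the genotypes. As a mean over days, the balance was higher in null than in Fl/Fl by 0.32 (exact permutation within days, two-sided, p = 0.198), and without null day 8 replicate 1 by 0.56 (exact p = 0.00717) and without the 11 null arrays by 0.11 (exact p = 0.672).

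**Figure D3:**
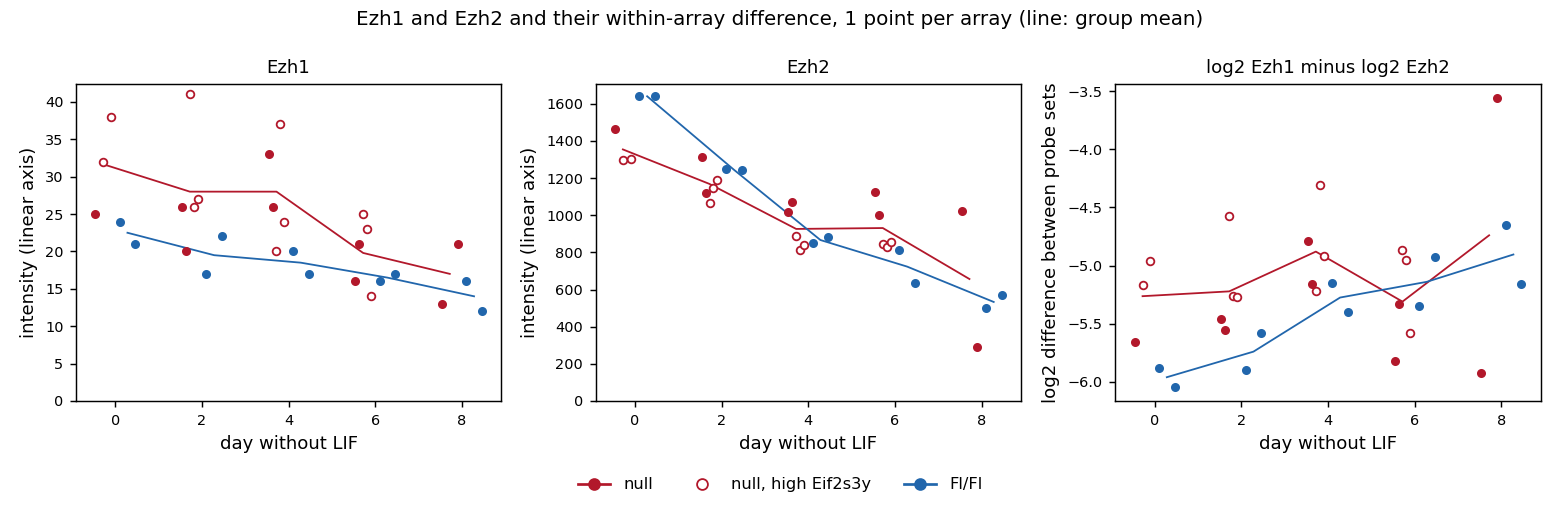
Intensity of Ezh1 and of Ezh2 (linear axes from 0) and log2 Ezh1 minus log2 Ezh2 against day without LIF, 1 point per array, null in red to the left of Fl/Fl in blue, with lines through group means and open points for null arrays with high Eif2s3y. In Fl/Fl the balance lies between −6.04 and −5.58 at days 0 and 2 and between −5.35 and −4.65 at days 6 and 8, and in null the arrays of day 8 lie at −5.92 and −3.56.

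Before day 4 few of all genes were called between the genotypes, so an absence of calls among 10 members carries little information. At day 0 the 3 null arrays lay under both Fl/Fl arrays for Ezh2 and Rbbp7. They lay above both for Ezh1, Eed and Mtf2, and the groups overlapped for the other members. With 3 arrays against 2 this is a description only. Of the 10 genes, 0 were called at day 0 by limma (1.06% of all genes; 2 members at an unadjusted p under 0.05) and 0 at day 2 (0.566% of all genes; 1 at an unadjusted p under 0.05). At day 4, Jarid2 and Eed were higher and Rbbp7 lower in null (10.7% of all genes called). At day 6, Jarid2, Suz12 and Rbbp7 were higher in null (9.31% of all genes called). At day 8, 0 were called (2.51% of all genes; 2 at an unadjusted p under 0.05). Averaged over the days, 4 were higher in null and 0 lower, where 22% of all genes were called and 7.23% were higher. Of all genes called in the average, 32.9% were higher in null as deposited, 50.2% after quantile normalization and 69.5% after centring each array on its brighter probe sets, so the share of higher calls among all genes depends on the scaling, while the 4 members were higher under each.

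Jarid2 had the largest average difference of the 10 genes, null above Fl/Fl by 0.57 (SE 0.113, adjusted p = 0.0012). The 5 null arrays lay above both Fl/Fl arrays at day 4 and at day 6, at day 2 the lowest null array fell between the Fl/Fl arrays, and at days 0 and 8 the groups overlapped. The average without the 11 null arrays was 0.76 (adjusted p = 0.016). At day 4 the log2 difference was 0.91 (adjusted p = 0.0187), and at day 6 it was 0.89 (adjusted p = 0.0217). The call at day 4 was lost without Fl/Fl day 4 replicate 1 or 2 (adjusted p = 0.146 and 0.132), the call at day 6 without Fl/Fl day 6 replicate 1 or 2 (adjusted p = 0.0771 and 0.314), and both were lost without the 11 null arrays (log2 1.00, adjusted p = 0.154, and log2 1.16, adjusted p = 0.134), which leaves 2 null arrays at each of these days.

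The other average differences were smaller, and none of them remained called without the 11 null arrays. Ezh1 was higher in null by 0.34 (SE 0.11, adjusted p = 0.0326) and, without the 11, by 0.25 (adjusted p = 0.172). Suz12 was higher by 0.29 (SE 0.095, adjusted p = 0.0333) and, without the 11, by 0.24 (adjusted p = 0.341). Eed was higher by 0.19 (SE 0.065, adjusted p = 0.0477) and, without the 11, by 0.07 (adjusted p = 0.569). Leaving out 1 array ended the call for Ezh1 with 8 arrays (adjusted p from 0.0537 to 0.0815), for Suz12 with 9 (0.0508 to 0.111) and for Eed with 21 (0.055 to 0.136). For Ezh2 the average difference was 0.02, with a 95% interval from −0.24 to 0.28. Mtf2 lay higher in null by 0.35 (95% interval 0.09 to 0.61), and by 0.13 without the 11, but was not called (adjusted p = 0.0562).

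Eed at day 4 was higher in null by 0.46 (SE 0.136, adjusted p = 0.0367), and 5 of 5 null arrays (1948 to 2762) lay above both Fl/Fl arrays (1640 and 1761). The call was lost without Fl/Fl day 4 replicate 2 (adjusted p = 0.273), without 4 other arrays in turn (adjusted p from 0.0717 to 0.15) and without the 11 null arrays (log2 0.23, adjusted p = 0.418). Suz12 at day 6 was higher in null by 0.67 (SE 0.2, adjusted p = 0.042), and 5 of 5 null arrays (1103 to 1628) lay above both Fl/Fl arrays (817 and 944). That call was lost without any of 13 arrays in turn, with an adjusted p of 0.41 without Fl/Fl day 6 replicate 2 and at most 0.13 without the other 12, and without the 11 null arrays (log2 0.61, adjusted p = 0.391).

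Rbbp7 changed sides between the genotypes. It was lower in null at day 4 by log2 −0.26 (SE 0.074, adjusted p = 0.03), with 5 of 5 null arrays (8786 to 10925) under both Fl/Fl arrays (11279 and 11614). It was higher in null at day 6 by 0.42 (SE 0.074, adjusted p = 0.000884), with 5 of 5 null arrays (12997 to 13492) above both Fl/Fl arrays (9462 and 10289). Its second probe set gave −0.48 at day 2 (adjusted p = 0.0215), −0.43 at day 4 (adjusted p = 0.00521) and 0.45 at day 6. The call at day 4 was lost without any of 5 arrays in turn (adjusted p from 0.0589 to 0.227), after quantile normalization (log2 −0.22, adjusted p = 0.0997) and after centring the arrays on brighter probe sets (log2 −0.16, adjusted p = 0.216). The call at day 6 was lost without Fl/Fl day 6 replicate 2 (log2 0.36, adjusted p = 0.0512). Without the 11 null arrays the differences were −0.22 at day 4 (adjusted p = 0.401) and 0.42 at day 6 (adjusted p = 0.119).

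**Figure D4:**
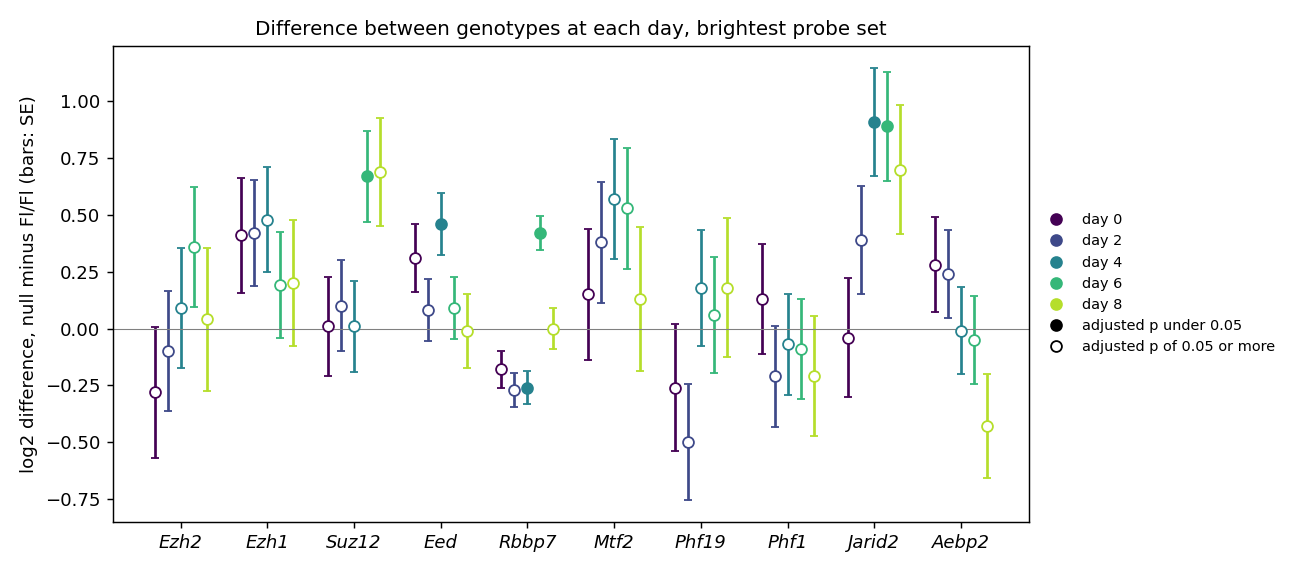
Log2 difference, null minus Fl/Fl, for the brightest probe set of each of the 10 genes at days 0, 2, 4, 6 and 8 (darker to lighter), with bars of 1 SE. Filled points have an adjusted p under 0.05: Eed, Rbbp7 and Jarid2 at day 4 and Suz12, Rbbp7 and Jarid2 at day 6.

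At day 8 the 2 null arrays disagreed for several members. They also differed in Eif2s3y, with 365 in replicate 1 and 11 in replicate 2, where the null arrays at day 0 read 259, 768 and 981. The relation of Eif2s3y to the members' values was not tested. Null replicate 1 read 920 for Jarid2, 1023 for Ezh2, 1499 for Suz12 and 1281 for Mtf2, and replicate 2 read 383, 290, 804 and 581. For Ezh2 the Fl/Fl arrays, at 498 and 568, lay between them. The log2 difference of Ezh2 between null and Fl/Fl at day 8 was 0.04 with both arrays, −0.87 without replicate 1 (adjusted p = 0.0066) and 0.94 without replicate 2 (adjusted p = 0.00118). The summed intensity of 14 proliferation genes at day 8 was 42524 in null replicate 1 and 14144 in replicate 2, against 20720 and 22391 in Fl/Fl. The part of this in the members' values was not tested. For none of the 10 genes was the day 8 against day 0 change called different between the genotypes (1.13% of all genes; 2 members at an unadjusted p under 0.05). Without null day 8 replicate 2, limma called 4: Ezh2 (log2 1.22, adjusted p = 0.00135), Suz12 (1.12, adjusted p = 0.0305), Jarid2 (1.36, adjusted p = 0.0133) and Phf1 (−0.98, adjusted p = 0.0352).

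The 6 probe sets of Mtf2 did not tell the same story. At days 2, 4 and 6 the second brightest, 1418514_at, read 2019 to 4008 in the 9 null arrays with high Eif2s3y and 732 to 1594 in the other 6 null arrays, against 569 to 1305 in Fl/Fl. The third, 1418515_at, read 156 to 560 in the 9, 227 to 602 in the other 6 and 212 to 559 in Fl/Fl, so the sets overlapped there. On the fourth, 1449115_at, the 9 arrays read 261 to 738, the other 6 read 170 to 589 and Fl/Fl 156 to 515. The average difference of 1418514_at was 0.77 (adjusted p = 0.0451) with all null arrays and 0.12 (adjusted p = 0.688) without the 11. In Fl/Fl at day 0 the same probe set read 4087 in replicate 1 and 2477 in replicate 2, whereas 1418515_at read 913 and 1071.

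**Figure D5:**
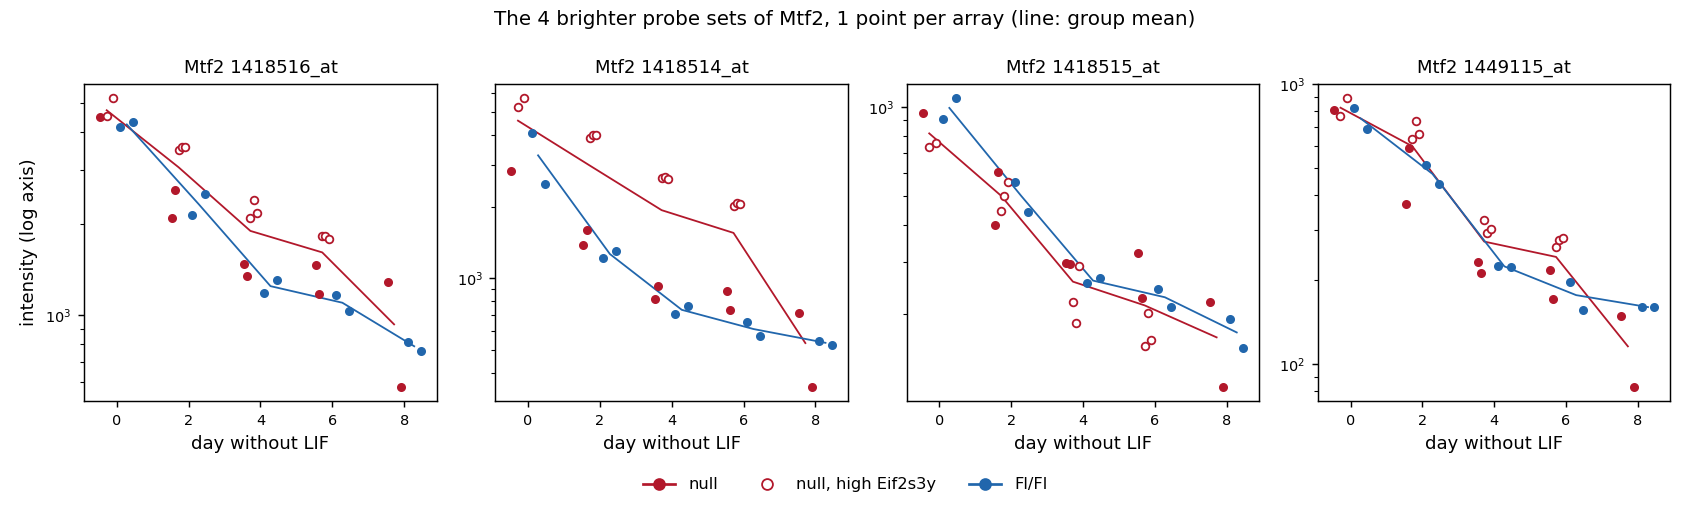
Intensity (log axes, whose ranges differ between panels) of the 4 brighter probe sets of Mtf2 against day without LIF, 1 point per array, null in red to the left of Fl/Fl in blue, with lines through group means and open points for null arrays with high Eif2s3y. On 1418514_at the open points at days 2, 4 and 6, from 2019 to 4008, lie above the other null arrays, and on 1418515_at they do not.

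Rbbp4, the close relative of Rbbp7 and no member of the 10, also differed between its probe sets. At days 2, 4 and 6 its probe set 1454791_a_at read 2386 to 4334 in the 9 null arrays with high Eif2s3y and 496 to 952 in the other 6, against 494 to 904 in Fl/Fl. The 2 Fl/Fl arrays of day 0 differed in the same probe set, with 2368 in replicate 1 and 391 in replicate 2. Its brightest probe set, 1434892_x_at, read 4928 to 6865 in the 9 and 6745 to 8063 in the other 6, against 5940 to 7068 in Fl/Fl. The split was also seen outside PRC2 genes, in Mcm3, a proliferation gene. At days 2, 4 and 6 a dimmer probe set of Mcm3 read 2826 to 5380 in the 9. It read 986 to 2186 in the other 6 and 510 to 2394 in Fl/Fl. On the brightest probe set of Mcm3 the sets overlapped, with 2578 to 4421 in the 9 and 2148 to 4154 in the other 6. Such a split between probe sets of 1 gene was found for Mtf2, Rbbp4 and Mcm3 after their values were seen. Its relation to transcript forms or to the arrays was not tested.

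Counts over all 32 probe sets include the dimmer ones. At day 8 in null 19 fell and 2 rose, where 27.5% of the 34958 probe sets were called, and in Fl/Fl 18 fell and 1 rose, where 28.4% were called. Averaged over the days 9 were higher in null and 0 lower, where 19% were called and 6.29% were higher: 1 of Ezh1, 1 of Suz12, 1 of Eed, 2 of Mtf2, 3 of Jarid2 and 1 of Aebp2. Neither Mtf2 nor Aebp2 was called by its brightest probe set, and Suz12 was called by 1 of its 6. The Aebp2 probe set, 1435070_at, lay higher by 0.41 (adjusted p = 0.0352), while the brightest of Aebp2 differed by 0.01 (95% interval −0.18 to 0.20). Probe sets that read 14 or less on every array, such as 1429630_at of Ezh1, 1453830_at of Eed, 1431857_at of Phf19 and 1421021_at of Aebp2, carry little information on change. Of the 32 probe sets, 28 lay above the dimmest 40% of named probe sets.

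Other subunits and partners were read in the same way. Of 5 further PRC2 genes measured (Rbbp4, Epop, Lcor, Lcorl and Ezhip), 1 fell and 0 rose at day 8 in null, where 32.1% of all genes were called and 17.7% fell. In Fl/Fl 2 fell and 0 rose, where 32.6% of all genes were called and 18% fell. A count over 5 genes is too small to set against these shares. Epop, a subunit of PRC2.1 abundant in ES cells, read 434.5 ± 227 at day 8 in null, against 3934.3 ± 1137.8 at day 0 (SD, n = 2 and 3), and 377 ± 38.2 in Fl/Fl, against 4104 ± 998.4 (SD, n = 2 each). Its log2 changes were −3.23 (adjusted p = 2.04e-09) in null and −3.41 (adjusted p = 2.81e-09) in Fl/Fl, beside −2.45 and −3.18 for Jarid2. Rbbp4 changed by −0.30 in null (adjusted p = 0.145) and fell by 0.62 in Fl/Fl (adjusted p = 0.00539). Lcor, whose gene also encodes a PRC2.1 subunit, was lower in null on average (log2 −0.86, adjusted p = 0.000776) and was the 1 gene of the 5 called between the genotypes.

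Enzymes that remove the mark and proteins that read it were set beside the members. Of 3 demethylase genes, Kdm6b rose in both genotypes, with 1026.5 ± 108.2 at day 8 against 257 ± 45.7 at day 0 in null and 1376 ± 193.7 against 275.5 ± 29 in Fl/Fl, log2 changes of 1.99 (adjusted p = 1.66e-05) and 2.30 (adjusted p = 8.65e-06). Kdm6a fell in null (log2 −0.74, adjusted p = 0.00969) and was not called in Fl/Fl (−0.59, adjusted p = 0.0574). In null Kdm6a read 445 and 356 at day 8, against 502, 722 and 823 at day 0. The arrays at 722 and 823 have high Eif2s3y and those of day 8 do not, so part of this fall may be a change of set. Uty was not called. It read 16 to 18 in the 4 null arrays with Eif2s3y of 11 to 16 and 34 to 109 in the 11 with high Eif2s3y. Of 4 Cbx genes of PRC1 measured, whose proteins bind the methyl mark, Cbx7, the main one of ES cells, fell by 4.13 in null (adjusted p = 1.46e-09) and by 4.51 in Fl/Fl (adjusted p = 1.12e-09). Cbx7 was also higher in null than in Fl/Fl at day 4 (log2 1.12, adjusted p = 0.00878) and at day 6 (2.13, adjusted p = 1.93e-05), the days on which Jarid2 was called. Cbx6 fell in null (−1.15, adjusted p = 0.0117), but its arrays overlapped, with 93 and 224 at day 8 against 460, 339 and 222 at day 0. Cbx2 and Cbx8 were not called at day 8.

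Markers of cell state moved alongside. All 6 ES cell markers (Pou5f1, Nanog, Sox2, Zfp42, Esrrb and Klf4) fell by day 8 in both genotypes. Their summed intensity at day 4 was 11072 to 12045 in null and 6210 to 6778 in Fl/Fl, and at day 6 it was 4342 to 8201 in null and 932 to 1056 in Fl/Fl, so it lay higher in null on the days when Jarid2 was called higher. The 6 markers did not share this order. At day 4, 1 of the 6 was called higher in null and 0 lower, and at day 6, 3 were called higher and 1 lower. Averaged over the days, 2 were higher in null and 2 lower. Klf4 at day 6 read 7 to 15 in null and 132 and 140 in Fl/Fl. Of 14 proliferation genes, 14 fell by day 8 in both genotypes, and at day 6, 5 were higher and 0 lower in null, with sums of 42199 to 54596 in null and 30431 to 31946 in Fl/Fl. Of 10 markers of fibroblasts and feeder cells, 8 rose and 0 fell by day 8 in each genotype, with sums of 6813 to 16056 at day 8 against 710 to 2586 at day 0 in null, and of 31513 to 34693 against 3484 to 3490 in Fl/Fl. On average 7 of these 10 were lower in null and 0 higher. The deposited intensities hold no 0. Lum reached 6 in null and 49 in Fl/Fl, and Col1a1 reached 475 in null and 6961 in Fl/Fl. Others of the 10 reached higher in null: Thbs1 (10018 in null, 8869 in Fl/Fl), Dcn (91 and 48) and Thy1 (51 and 10). The part of these markers in the members' values was not tested.

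Across the 30 arrays, genes with a course like that of a member were ranked by Pearson's r of log2 values among 7277 brighter genes, as a description only, since the arrays share their days. For Jarid2 the closest were Exosc5 (r = 0.964), Fkbp5 (0.961), Gadd45gip1 (0.96), Ruvbl2 (0.958) and Xrcc5 (0.957). Among the members Mtf2 stood closest to Jarid2 (r = 0.912), then Ezh2 (0.888) and Suz12 (0.882), and Rbbp7 (−0.478) and Phf1 (−0.555) ran the other way. For Ezh2 the closest were Mcm6 (r = 0.959), Uhrf1 (0.947), Gmnn (0.943), Rrm2 (0.942) and Mcm10 (0.942), genes of DNA replication and its control. For Ezh1, searched among 7278 genes, no gene exceeded Oxnad1 (r = 0.798), followed by Surf2 (0.753), Glipr1 (0.752), Cds2 (0.751) and Ndufs8 (0.75). Ezh1 and Ezh2 themselves correlated at r = 0.344.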

How the data were processed

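The authors deposited 1 table of linear probe set intensity, rounded to whole numbers, per the file headers 1 column per array. Per the labels' protocols, total RNA was extracted with Trizol and biotinylated cRNA was hybridized. Background correction, summary and normalization were not given in the sources used here, and values stayed as deposited. Genes came from the platform annotation (34958 probe sets naming 1 gene; 932 with several and 9211 with none were left out), of which 34754 matched the RefSeq gene table of GRCm38.p6 by identifier and 0 symbols changed.

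Values were transformed to log2(intensity + 4), 4 being their 5th percentile. limma 3.58.1 (R 4.3.3) fitted 10 group means over all 30 arrays (20 residual degrees of freedom, 20.6 after moderation), since 6 groups held 2 arrays, and 15 contrasts were tested two-sided and adjusted over the 34958 probe sets. The brightest probe set, by mean log2, stood for its gene. No probe set was removed for low signal. The fit was checked on simulated data. Exact permutation tests compared the Ezh1 to Ezh2 balance. Motifs were searched with Python 3.11.15 on both strands.

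Every probe set of the 10 genes is accounted for. Named beyond them are the genes of the fixed lists (further PRC2 genes, demethylases, Cbx readers, proliferation genes, ES cell and fibroblast markers) and the 5 genes of highest Pearson r with Jarid2, Ezh2 and Ezh1. Members, lists, motifs and alternatives were chosen with earlier results of these data known. Replicate numbers did not pair the arrays: correlations of deviations of same-numbered arrays ran from −0.38 to 0.21.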

Additional observations from a re-analysis of the deposited data

Results flagged for a closer look

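Of 30 sets of null replicates tested (groups of 5 arrays, by the brightest probe set of each gene), 2 held an array far from the others, where chance gives about 1 in 20. Phf19 in null at day 2 read 16 in replicate 5, against 9, 9, 9 and 10 in the other arrays. Phf1 in null at day 4 read 16 in replicate 1, against 13 in each of the other 4 arrays. Both genes stood near the floor of the arrays, and neither was called between the genotypes at these days.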

How the results depend on the processing

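The counts of members called were recomputed under 41 other settings, 30 of which leave out 1 array. Values are counts of the 10 genes unless said otherwise. Calls over all 18194 genes also moved with several settings, so a changed count need not be particular to the members. Without the 11 null arrays, 744 genes were called between the genotypes at day 4 (1944 with all arrays) and 269 at day 6 (1694). With only those 11 in null, 1696 were called at day 2 in Fl/Fl (498). With only the groups compared, 752 were called at day 8 in null (5846). Without the 11 null arrays with high Eif2s3y, the count for null against Fl/Fl was 0 at day 4 (3 with all arrays), 0 at day 6 (3) and 1 on average (4, the 1 being Jarid2), and in null it was 2 at day 2 (1) and 5 at day 8 (8). With only those 11 among the null arrays it was 1 at day 0 (0) and 2 at day 2 (0) for null against Fl/Fl, 4 at day 2 in null (1), and 5 at day 2 (1) and 7 at day 4 (4) in Fl/Fl; comparisons that need null arrays at day 8 could not be fitted. With only the groups compared in the fit it was 1 at day 6 for null against Fl/Fl (3), 1 at day 8 in null (8) and 3 at day 6 in Fl/Fl (7), where fewer arrays set the spread. With array weights it was 1 for null against Fl/Fl at day 2 (0) and 3 at day 2 in null (1). At day 2 in Fl/Fl it was 0 after quantile normalization, 2 after centring, 2 without the dimmest 40% and 2 with 1 probe set per gene (1), and at day 4 it was 7 after centring (4). At day 2 in null it was 2 with 1 probe set per gene (1). Centring moved the median of all genes at day 6 in Fl/Fl to −0.19, from −0.06 as deposited.

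Among all genes called, the share higher in null was 22.3% at day 0 as deposited and 34.7% after centring, 35.4% and 50.4% at day 4, 34.8% and 46.4% at day 6 and 28.2% and 42.5% at day 8. After quantile normalization it was 46.3% at day 6 and 42.8% at day 8. At day 6 against day 0 in Fl/Fl the share higher was 41.3% as deposited and 30.5% after centring.

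The replicate numbers share only a label, and with the number as a replicate block the count for null against Fl/Fl was 1 at day 4 and 1 on average, and at day 2 it was 2 in null and 3 in Fl/Fl. The other counts stayed within 1.5 times.

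Leaving out 1 array at a time gave, for null against Fl/Fl, counts of 0 to 1 at day 0, 0 to 1 at day 2, 0 to 3 at day 4, 0 to 3 at day 6, 0 to 4 at day 8 and 1 to 5 on average. Against day 0 they were 1 to 2 at day 2, 4 to 6 at day 4, 6 to 8 at day 6 and 5 to 9 at day 8 in null, and 0 to 2, 3 to 6, 4 to 7 and 5 to 7 on these days in Fl/Fl. The difference between genotypes in the day 8 change gave 0 to 4. The Ezh1 to Ezh2 balance gave log2 −0.17 to 0.22 in null, 0.70 to 0.94 in Fl/Fl and 0.09 to 0.56 between the genotypes. The sign of 1 difference turned with a call: Ezh2 between null and Fl/Fl at day 8 was −0.87 (limma, adjusted p = 0.0066) without null day 8 replicate 1, against 0.04 with all arrays. The cause was not tested.

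Near the floor (Ezh1, Phf19 and Phf1) the signal over background limits what can be seen, and groups of 2 arrays limit every comparison at day 8.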
